A study of Caenorhabditis elegans with 96 samples.

Results

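The transcription factor DAF-16, the FOXO protein of the nematode Caenorhabditis elegans, is held out of the nucleus by signalling through the insulin/IGF receptor DAF-2 and the kinases downstream of it. When that signalling is reduced, DAF-16 enters the nucleus and animals live longer, and its responsive genes are classically divided into those it raises and those whose transcripts fall. Among the raised genes are sod-3, mtl-1, mtl-2, dod-3, dod-6, lea-1 and hsp-12.6, which code for proteins against oxidative, metal, desiccation and protein-folding stress and for proteins named only as downstream of DAF-16. The genes lowered when DAF-16 is active include dod-17, dod-22 and dod-24, which code for secreted CUB-like proteins that belong to the intestinal immune response. The 10 genes were taken by symbol from a list of known DAF-16 responsive genes, each symbol matched 1 identifier among the 46904 gene identifiers of the count tables, and no measured value was used to choose them.

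RNA was sequenced from 85 recombinant inbred advanced intercross lines, whose genomes are homozygous mosaics of the laboratory strain N2 and the Hawaiian wild isolate CB4856, and from both parents, to study regulators of lifespan. Each line was sequenced once, N2 4 times and CB4856 7 times, and the sample titles place the 96 libraries in 7 batches, numbered 2, 3, 4, 6, 7, 8 and 9, of 7 to 19 lines. CB4856 was present once in every batch and N2 in batches 3, 6, 8 and 9. The labels name no engineered allele and mark every sample as a control, all animals were fed Escherichia coli HT115, and all were harvested as synchronised L4 larvae, the last larval stage. Because a line has a single library, lines stand for different genotypes and are not replicates of a condition. The labels do not say whether the parental libraries of different batches came from independent stocks, so p-values between the parents measure the spread between these libraries, which may be technical.

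Gene counts summed to between 22069702 and 24001627 per library, and levels are given as CPM, a gene's count divided by that sum and scaled to a common depth. In whole animals, fewer cells of a type and less RNA per cell cannot be told apart. All 6 intestine markers were detected in every library, and so were all 8 oocyte and all 6 yolk markers. The yolk protein genes, which are transcribed in the adult intestine, summed to between 17246 and 73777 CPM in the lines, between 29638 and 34798 in N2 and between 22789 and 63912 in CB4856, so adult transcripts were abundant in libraries labelled as L4. Lines QX491 and QX503, both of batch 9, stood apart in several of the 10 genes. Some results that rest on them are given with and without them, among them correlations between these genes and means of batch 9. Correlations with marker lists and the genes most like each of the 10 are not given without QX491 and QX503.

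Positions are on the WBcel235 assembly. The 3 lowered genes lie together on chromosome IV, dod-24 at IV:12940106-12941354 on the minus strand, dod-22 at IV:12965374-12967392 and dod-17 at IV:12976303-12978343 on the plus strand. From the start of dod-24 to the end of dod-17 is 38.24 kb, which holds 11 protein-coding genes. The raised genes are scattered: sod-3 at X:17092753-17094306 and dod-6 at III:10197716-10198352 on the plus strand, hsp-12.6 at IV:9446229-9447228 on the minus strand, and 4 genes on chromosome V. These are dod-3 at V:2730622-2731098, mtl-1 at V:6691371-6691863 and mtl-2 at V:14018270-14018673, all on the minus strand, and lea-1 at V:10011923-10028168 on the plus strand. All 10 are protein-coding. Counting did not use strand, and 89 of the 881 exon bases of sod-3 overlap genes on the opposite strand, 19 of the 4830 of lea-1 overlap acl-2, and 21 of the 769 of hsp-12.6 overlap a piRNA gene.

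The 10 genes covered a wide range of levels. Per kilobase of exon, dod-6 was the most abundant in N2, with 171 ± 24.9 CPM per kb (SD, n = 4). It was followed by mtl-2 with 69.9 ± 21.9, lea-1 with 43.5 ± 1.39, dod-24 with 27.4 ± 10.3, dod-17 with 16.6 ± 6.74 and dod-22 with 14.2 ± 17.2 CPM per kb. At the low end stood sod-3 with 3.26 ± 0.306, dod-3 with 2.68 ± 3.03, hsp-12.6 with 0.996 ± 0.432 and mtl-1 with 0.456 ± 0.405 CPM per kb. From dod-6 down to dod-17, neighbours in this order differed by more than the SD of either. From dod-17 down to hsp-12.6, neighbours differed by less than the larger SD, while hsp-12.6 and mtl-1 differed by more than either. In CB4856 dod-24 came second, with 97.6 ± 76.3 CPM per kb (SD, n = 7) behind 132 ± 18.7 for dod-6, and dod-17 stood at 7.46 ± 2.93. Counting error bears mainly on 2 genes. A library held 1 to 9 counts of mtl-1 in N2, 2 to 44 in CB4856 and 1 to 422 in the lines, and hsp-12.6 had 2 to 47 counts in the lines.

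**Figure D1:**
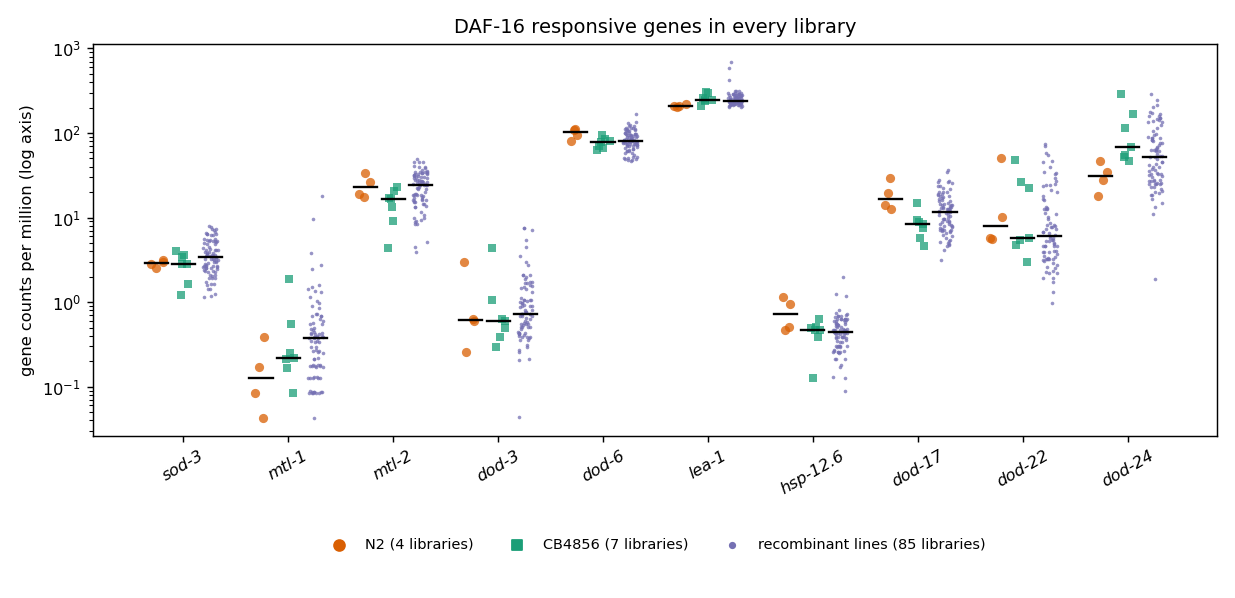
Levels in CPM (log axis) of the 10 genes in every library, with N2 as circles, CB4856 as squares, the 85 recombinant lines as dots and the median of each group as a bar. The parental ranges overlap for each gene, dod-24 spans 1.89 to 293 CPM among the lines, and 2 lines stand above all others for mtl-1 and lea-1.

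Between the parents, dod-17 was higher in N2, and dod-24 and lea-1 were higher in CB4856. These were 3 of the 9 genes that passed the filter on low counts, beside 33.9% of all 14858 genes tested, so the share among the 10 genes was near that of the genome. The median log2 fold change over the 9 genes was 0.10, and over all genes tested 0.03. Tests were edgeR's quasi-likelihood test with Benjamini-Hochberg adjustment over all genes, and the 2 strains overlapped in range for every one of the 10 genes. Reads of both strains were counted on the same assembly, and an effect of sequence differences between the strains on the counts was not tested.

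The gene dod-17 measured 14.02, 29.6, 19.5 and 12.7 CPM in N2 (batches 3, 6, 8 and 9) and from 4.65 to 15.03 CPM with a median of 8.33 in CB4856. Only the CB4856 library of batch 4 reached into the N2 range. The log2 fold change of N2 over CB4856 was 1.12 ± 0.30 (SE, adjusted p = 0.0140). Within the 4 batches that hold both strains, N2 was higher each time, by 1.35 to 4.18 times. The neighbouring dod-24 went the other way: it measured 46.5, 27.8, 18.1 and 34.2 CPM in N2 and from 46.4 to 287 CPM with a median of 68.1 in CB4856. The 2 strains met only where the highest N2 library touched the lowest CB4856 library. The log2 fold change was -1.85 ± 0.54 (adjusted p = 0.0215), and N2 had 0.328 to 0.738 of the CB4856 level within the batches. For lea-1, which codes for a protein of the late embryogenesis abundant family needed to survive drying, the N2 libraries lay close together at 218, 211, 202 and 209 CPM, and the CB4856 libraries spanned 211 to 305 with a median of 246. The difference was small but even, with a log2 fold change of -0.33 ± 0.10 (adjusted p = 0.0197) and CB4856 higher in 4 of 4 batches.

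With batch as a block in the 8 parental libraries of the shared batches, 5 of the 9 genes passed, beside 14.6% of all genes in that fit. The gene mtl-2, a metallothionein that binds heavy metals, measured 17.4, 26.6, 19.1 and 33.9 CPM in N2 and from 4.39 to 22.8 with a median of 16.52 in CB4856. Its log2 fold change was 0.66 ± 0.37 (adjusted p = 0.195) without the block and 0.64 ± 0.12 (adjusted p = 0.0260) with it, and N2 was higher in 4 of 4 batches, by 1.42 to 1.90 times. The third gene of the chromosome IV interval, dod-22, measured 5.77, 10.05, 5.601 and 50.1 CPM in N2 and from 2.96 to 47.5 with a median of 5.75 in CB4856. Its log2 fold change was 0.10 ± 0.84 (adjusted p = 0.938) without the block and 0.73 ± 0.16 (adjusted p = 0.0350) with it. Both strains spread widely across batches for dod-22, and N2 was nonetheless higher in 4 of 4 batches, by 1.20 to 1.92 times. With the block, dod-17 stood at 1.42 ± 0.30 (adjusted p = 0.0330), dod-24 at -1.19 ± 0.19 (adjusted p = 0.0164) and lea-1 at -0.42 ± 0.09 (adjusted p = 0.0375).

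**Figure D2:**
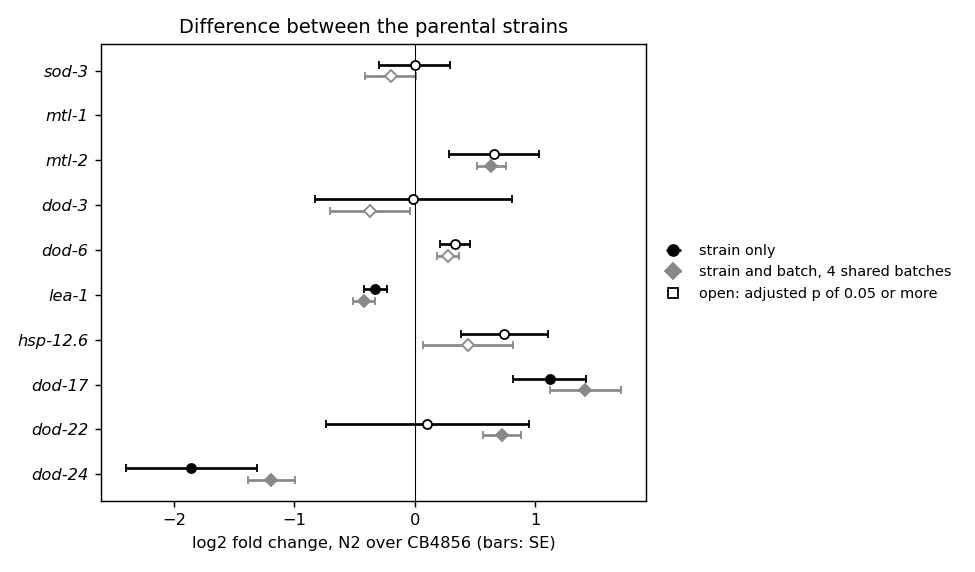
Log2 fold change of N2 over CB4856 with its SE for 9 of the 10 genes, from 11 parental libraries with strain alone (circles) and from the 8 libraries of the shared batches with batch as a block (diamonds). Filled symbols passed an adjusted p of 0.05; dod-17 lies to the right and dod-24 and lea-1 to the left in both, and mtl-1 had too few counts to be tested.

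The other 4 genes tested passed in neither fit. The level of dod-6 in N2 was 80.5, 113, 108 and 95.7 CPM, and in CB4856 it ran from 63.6 to 93.4 with a median of 78.8. N2 was higher in 4 of 4 batches, and the log2 fold change was 0.33 ± 0.12 (adjusted p = 0.0572, and 0.0885 with the block). The superoxide dismutase gene sod-3, the usual reporter of DAF-16 activity, measured 2.53, 3.16, 2.82 and 2.97 CPM in N2 and from 1.23 to 3.98 with a median of 2.83 in CB4856. Its log2 fold change was 0.00 ± 0.29 (adjusted p = 0.999). For dod-3 the N2 libraries measured 0.631, 0.599, 0.257 and 3.01 CPM and CB4856 ran from 0.296 to 4.304 with a median of 0.590, with batch 9 highest in both strains and a log2 fold change of -0.01 ± 0.82 (adjusted p = 0.993). The small heat shock gene hsp-12.6 measured 0.505, 0.470, 0.941 and 1.15 CPM in N2 and from 0.127 to 0.633 with a median of 0.465 in CB4856, a log2 fold change of 0.75 ± 0.36 (adjusted p = 0.133). The metallothionein gene mtl-1 measured 0.0842, 0.0428, 0.171 and 0.382 CPM in N2 and from 0.0845 to 1.88 with a median of 0.217 in CB4856. It was tested only without the filter, with a log2 fold change of -1.52 ± 0.87 (adjusted p = 0.253), and CB4856 was higher in 4 of 4 batches.

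The 3 calls of the fit on strain alone depend on single libraries. Without the N2 library of batch 6, lea-1 alone passed (adjusted p = 0.0474), and dod-17 and dod-24 stood at 0.0687 and 0.0704. Without the N2 library of batch 8, dod-17 alone passed (adjusted p = 0.0395), and dod-24 and lea-1 stood at 0.0723 and 0.0713. The strains also differed in marker transcripts: sperm markers summed to between 59.1 and 234 CPM in N2 and between 29.8 and 76.1 in CB4856, with all 7 genes detected in every N2 library and 6 of 7 in every CB4856 library. The first principal component of the lines, computed without the 10 genes and holding 21.4% of the variance in a set of 2000 highly variable genes, scored N2 at 9.64, 42.6, 42.1 and -50.8 and CB4856 between -53.9 and -5.74. With this score as a covariate 0 of the 9 genes passed in edgeR, beside 17.1% of all genes, with a log2 fold change of 0.71 ± 0.34 for dod-17 (adjusted p = 0.172), -1.62 ± 0.74 for dod-24 (adjusted p = 0.161) and -0.35 ± 0.12 for lea-1 (adjusted p = 0.0618). The change of dod-24 and lea-1 thus stayed within 1 SE of that without the covariate, and that of dod-17 was smaller. At an unadjusted p under 0.05 stood 2 of the 9 genes in that fit, lea-1 at 0.0119 and hsp-12.6 at 0.0312, beside 4824 of all 14858.

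In a list of 16 genes of the insulin pathway, 5 passed between the parents, a share near or below the 33.9% of all genes tested. All 5 were lower in N2. The list holds daf-16 itself and factors such as pqm-1, hsf-1, skn-1, smk-1 and hcf-1 beside the signalling genes. With batch as a block 4 of the 16 passed, beside 14.6% of all genes in that fit. With component 1 as a covariate also 4 passed, beside 17.1%, and in both fits all were lower in N2. The 5 include daf-2, the receptor gene, at a log2 fold change of -0.58 ± 0.11 (adjusted p = 0.00289), and age-1, the phosphoinositide 3-kinase gene, at -0.50 ± 0.11 (adjusted p = 0.00459). The median over the 16 was -0.21. Of 14 tested among 19 other genes raised by DAF-16, 3 passed, and all were lower in N2: hsp-12.3, a small heat shock gene, at -1.37 ± 0.28 (adjusted p = 0.00380), ctl-3, a catalase gene, at -1.31 ± 0.24 (adjusted p = 0.00210), and lys-7, a lysozyme gene, at -1.71 ± 0.56 (adjusted p = 0.0349). The median of the 14 was -0.23, and with the block 4 passed, 3 of them lower in N2, beside 14.6% of all genes. Among 4 tested of 5 other dod genes, dod-23 passed at -1.91 ± 0.33 (adjusted p = 0.00171). In the p38 immune pathway, which also governs CUB-like genes, 2 of 11 passed and both were higher in N2, irg-4 at 3.56 ± 0.30 (adjusted p = 4.5e-06) and irg-5 at 2.03 ± 0.69 (adjusted p = 0.0410). With the block 4 of 11 passed, all higher in N2, beside 14.6% of all genes. In a metal response list 3 of 11 tested passed, with cdr-1 at 3.89 ± 0.49 (adjusted p = 0.000138), cdr-6 at -0.80 ± 0.08 (adjusted p = 2.4e-05) and hmt-1 at -0.26 ± 0.08 (adjusted p = 0.0320). In the fit on strain alone, the shares of these other lists, too, were near or below 33.9%. With the block the shares of the lists lay above the 14.6% of all genes, in lists of few genes, and this was not tested.

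Genes between dod-24 and dod-17 also differed between the parents, in mixed directions. Of the 8 other genes of the interval 6 were tested and 3 passed, beside 33.9% of all genes. All 3 were lower in N2, among them F55G11.4 at a log2 fold change of -1.74 ± 0.49 (adjusted p = 0.0175) and F55G11.1 at -1.06 ± 0.29 (adjusted p = 0.0143). The third, dct-19, had 0 counts in all 4 N2 libraries and 4.66 ± 3.34 CPM (SD, n = 7) in CB4856, from 0.341 to 10.5. Against a floor of 3 counts per N2 library, it was at least 36.5-fold higher in CB4856, and 19 of the 85 lines had 0 counts. With batch as a block, 3 of 5 genes tested passed, beside 14.6% of all genes in that fit. F55G11.1 at -1.09 ± 0.24 (adjusted p = 0.0350) was lower in N2, and F55G11.8 at 0.84 ± 0.19 (adjusted p = 0.0387) and F55G11.2 at 0.97 ± 0.23 (adjusted p = 0.0431) were higher in N2, as were dod-22 and dod-17. With component 1 as a covariate 2 of 6 passed, both lower in N2, beside 17.1% of all genes in that fit. These 8 genes were set by position, after the annotation was read.

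The average line was then set against the middle of its parents. None of the 10 genes passed in edgeR, beside 0.0364% of 16500 genes tested, or in DESeq2, beside 0.315%. At an unadjusted p under 0.05 stood 1 of the 10 genes, beside 1264 of all 16500. This was mtl-1, with a log2 difference of 1.51 ± 0.70 (p = 0.0340, adjusted p = 0.614), and 0.82 ± 0.49 (p = 0.0968) without QX491 and QX503. With batch as a block 0 of 10 passed, beside 0.0970% of all genes, with adjusted p of at least 0.445. In that fit 5 of the 10 genes stood at an unadjusted p under 0.05, beside 1487 of all 16500. They were mtl-2 at a log2 difference of 0.40 (p = 0.00852), mtl-1 at 1.34 (p = 0.00977), sod-3 at 0.44 (p = 0.0149), lea-1 at 0.18 (p = 0.0408) and dod-22 at -0.49 (p = 0.0423). The difference was 0.40 ± 0.22 for sod-3 and 0.34 ± 0.24 for mtl-2, and the 7 remaining genes lay between -0.42 for dod-22 and 0.25 for dod-24. This contrast sets the log of a mean level over lines against the middle of the parental logs, so a few very high lines raise it.

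Individual lines went beyond both parents. For sod-3, 31 of 85 lines were above the highest parental library and 2 below the lowest, and the lines ran from 1.15 CPM in QX562 to 7.85 in QX519 with a median of 3.43. For dod-6, 9 lines were above and 16 below, from 47.01 CPM in QX555 to 169 in QX519 with a median of 81.3. The line QX519, of batch 9, was thus the highest for both sod-3 and dod-6, and ranked 3 for dod-17 at 27.8 CPM. For mtl-2, 14 lines were above and 1 below, from 3.89 CPM in QX563 to 49.4 in QX493 with a median of 24.3. For dod-22, 4 were above and 13 below, from 0.986 CPM in QX574 to 74.8 in QX498 with a median of 5.99. For each of the other genes, between 4 and 8 lines in all lay outside the parental range. A range over 85 lines has more room than one over 11 parental libraries, so these counts are descriptions.

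The variance among lines was larger than the pooled variance within the parental strains for 8 of the 10 genes, and for 80.2% of 16500 genes. The ratio was highest for dod-6 at 3.35 and lea-1 at 2.79, followed by dod-24 at 1.96 and dod-17 at 1.95, and the median over all genes was 1.59. It was below 1 for dod-22 at 0.911 and dod-3 at 0.803, whose SD within the parental strains, 1.47 and 1.22 on the log2 scale, was wider than the 1.40 and 1.09 among the lines. With batch means removed from the lines, the ratio was above 1 for 6 of the 10 genes beside a median over all genes of 1.25. It was 2.53 for lea-1, 2.35 for dod-6, 1.42 for dod-17 and 1.296 for dod-24 at the high end. At the low end stood 0.394 for mtl-2 and 0.284 for dod-22. Batch differences stayed in the parental variance, so this ratio sets unlike quantities side by side. It is lowered most for genes with large batch differences, such as mtl-2 and dod-22. Without QX491 and QX503 the ratio of lea-1 was 1.23, batch means not removed. The ratio was 7.04 for lea-1 without the CB4856 library of batch 4 and 3.41 for mtl-1 without that of batch 9, so single parental libraries set its size.

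The lines QX491 and QX503 carried high transcript levels of 4 raised genes at once. The level of mtl-1 was 17.9 CPM in QX491 and 9.71 in QX503, the highest and second highest of 85, beside a median over lines of 0.376, and the next line had 3.83. For lea-1, QX503 had 695 CPM and QX491 579, again the highest and second highest, beside a median of 242 and a next line at 419. For dod-3 they had 7.16 and 7.48 CPM, the third and second highest, and for mtl-2 45.1 and 45.7, the fourth and second highest. Against the median of the lines of batch 9, QX503 and QX491 had 8.27 and 15.3 times the mtl-1 level and 2.65 and 2.21 times that of lea-1. For dod-3 these ratios were 3.39 and 3.55, and for mtl-2 only 1.34 and 1.36. The level of hsp-12.6 was the highest of all lines in QX491, at 1.996 CPM from 47 counts, and 0.615 in QX503. Other raised genes did not follow: sod-3 stood at 1.23 CPM in QX491 and 2.28 in QX503, rank 83 and rank 69 of 85, and dod-6 at 91.7 and 97.3, near the median of 81.3. Of the lowered genes, dod-17 measured 7.09 and 4.17 CPM, rank 68 and rank 84, and dod-24 32.4 and 18.4, rank 58 and rank 80. The third, dod-22, was above its median over all lines of 5.99, at 25.1 CPM in QX491 and 16.8 in QX503, rank 13 and rank 20. Against the median of the lines of batch 9, where dod-22 was high, it stood at 1.05 and 0.702 times. Intestine markers summed to 644 CPM in QX491 and 577 in QX503, rank 81 and rank 85 of 85 beside a median of 1204, and the part of this in the high levels was not tested. The 2 libraries held 23544981 and 22771371 gene counts, within the range of the others.

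A line at the other end was QX574 of batch 7, with the lowest dod-24 of all lines at 1.89 CPM from 44 counts, beside 51.7 as the median of the lines and 11.04 in the next line. It also had the lowest dod-22, at 0.986 CPM from 23 counts, and 5.36 CPM of dod-17, rank 77. The same line had 40.7 CPM of mtl-2, rank 5, and 1.59 of mtl-1, rank 6. Its batch mate QX571 combined the highest dod-17, at 36.1 CPM, with 152 CPM of dod-24, rank 10, and with mtl-2 at 45.5 CPM, rank 3. QX571 also had the highest score on the first principal component, 79.97, and the most genes detected, 19891, of all 96 libraries. The part of this in its levels was not tested. High metallothionein transcripts thus occurred both with high and with low levels of the lowered genes. These lines were singled out after their values were seen.

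**Figure D3:**
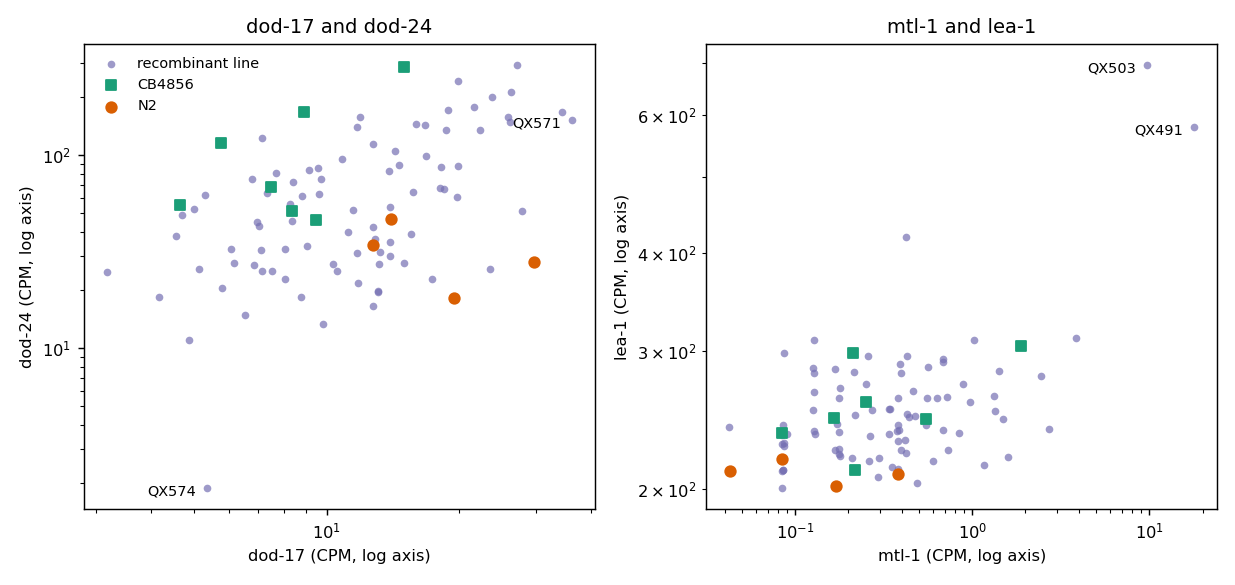
Levels in each library (CPM, log axes) of dod-24 against dod-17 (left) and of lea-1 against mtl-1 (right), with recombinant lines as dots, CB4856 as squares and N2 as circles. On the left the lines rise together and the parents lie on opposite sides of them, with QX574 far below; on the right QX491 and QX503 lie apart from all other lines.

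Across the 85 lines, the genes formed 2 groups of transcripts that varied together. Correlations were computed for all 45 pairs of log2 CPM, with a two-sided permutation test of 100000 resamples and adjustment over the 45 pairs, and then again with the mean of each batch removed and lines permuted within batches. Before batch removal 21 pairs passed, and after it 7. The 3 lowered genes of the chromosome IV interval all correlated with each other after batch removal. The strongest pair was dod-17 and dod-24, with r = 0.562 pooled (p = 1.0e-05, adjusted p = 7.5e-05), rho = 0.544 (adjusted p = 7.5e-05) and r = 0.607 with batch means removed (adjusted p = 0.00015), where 1.0e-05 is the smallest p that the resampling can give. It was positive in 7 of 7 batches, from 0.450 to 0.775, and was 0.545 without the 2 lines farthest from the median of dod-17. The pair dod-17 and dod-22 had r = 0.480 pooled, rho = 0.483 and 0.579 with batch means removed (adjusted p = 0.00015), positive in 7 of 7 batches and 0.471 without the 2 farthest lines. The pair dod-22 and dod-24 had r = 0.535 pooled, rho = 0.527 and 0.519 with batch means removed (adjusted p = 0.000225), positive in 6 of 7 batches and 0.560 without the 2 farthest lines. So dod-17 and dod-24 rose and fell together over lines, although the parents differed in opposite directions for them. Neighbouring genes share a parental haplotype in most lines, and the genotypes of the lines were not analysed here.

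The second group was mtl-1, mtl-2 and dod-3. The pair mtl-1 and dod-3 had r = 0.669 pooled (adjusted p = 7.5e-05), rho = 0.488 (adjusted p = 7.5e-05) and 0.537 with batch means removed (adjusted p = 0.00015), positive in 7 of 7 batches. It had r = 0.575 without the 2 lines farthest from the median of mtl-1. The pair mtl-2 and dod-3 had r = 0.5675 pooled, rho = 0.544 and 0.429 with batch means removed (adjusted p = 0.00045), positive in 7 of 7 batches and 0.502 without the 2 farthest lines. The pair mtl-1 and mtl-2 had r = 0.453 pooled, rho = 0.550 and 0.376 with batch means removed (adjusted p = 0.00367), positive in 7 of 7 batches and 0.414 without the 2 farthest lines. Without QX491 and QX503, batch means removed, these 3 pairs had r = 0.455, 0.398 and 0.337 (adjusted p = 0.000337, 0.00262 and 0.0271).

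The pair mtl-1 and lea-1 rests on those 2 lines. It had r = 0.508 pooled (adjusted p = 0.0003) and 0.444 with batch means removed (adjusted p = 0.0152), but rho = 0.207 (adjusted p = 0.140), r = 0.137 without the 2 farthest lines, and a positive r in 2 of 7 batches. Conversely, mtl-2 and lea-1 had r = -0.133 with batch means removed (adjusted p = 0.461) and -0.417 without QX491 and QX503 (adjusted p = 0.00045). The gene sod-3 had no pair that passed with batch means removed; its highest was 0.144 with mtl-2 (adjusted p = 0.461) and its lowest -0.311 with lea-1 (adjusted p = 0.107). Likewise dod-6 and hsp-12.6 had none.

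Negative relations between raised and lowered genes passed only before batch means were removed. The pair mtl-2 and dod-24 had r = -0.577 pooled (adjusted p = 7.5e-05), rho = -0.517 (adjusted p = 0.000129) and r = -0.582 without the 2 farthest lines, but -0.236 with batch means removed (adjusted p = 0.198), with a positive r in 1 of 7 batches. The pair sod-3 and dod-22 had r = -0.470 pooled (adjusted p = 0.000129), rho = -0.459 and -0.435 without the 2 farthest lines, but -0.165 with batch means removed (adjusted p = 0.461). In contrast, mtl-1 and dod-22 were positively related, at r = 0.337 pooled (adjusted p = 0.00501) and 0.119 with batch means removed (adjusted p = 0.739). The relations of sod-3 with mtl-2 and with dod-6, at r = 0.409 and 0.356 pooled (adjusted p = 0.00054 and 0.0034), likewise became 0.144 and 0.107 (adjusted p = 0.461 and 0.739).

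**Figure D4:**
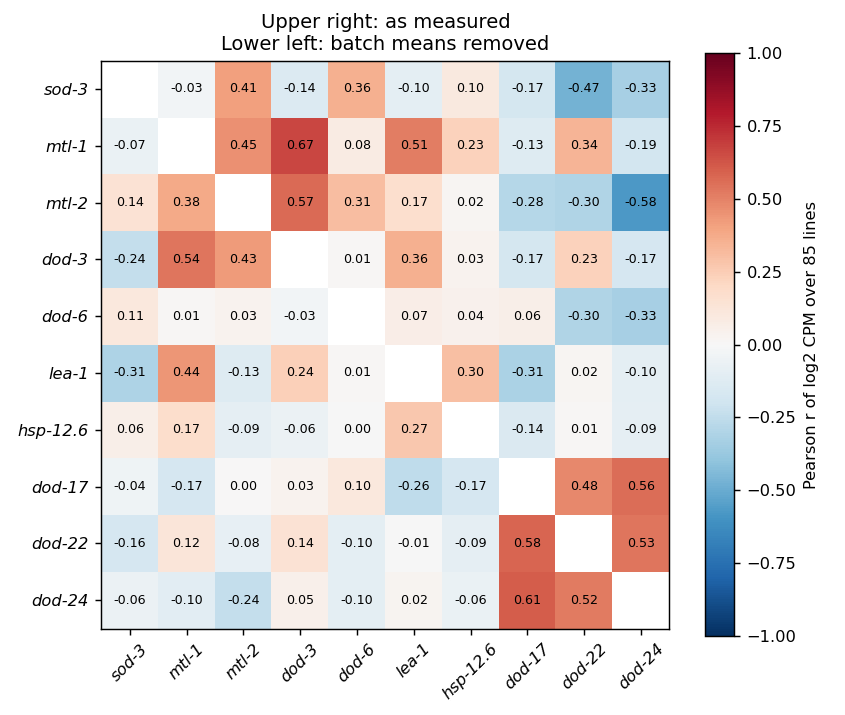
Pearson r of log2 CPM over 85 lines for each pair of the 10 genes, as measured in the upper right and with batch means removed in the lower left. After batch removal the blocks that remain positive are dod-17, dod-22 and dod-24 in the lower right corner (0.52 to 0.61) and mtl-1, mtl-2 and dod-3 (0.38 to 0.54). Negative values between these groups shrink, except that of mtl-1 and dod-17, which goes from -0.13 to -0.17.

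Batches differed for most of the genes. Among the lines 9 of the 10 genes passed an F test of the 7 batches, beside 79.5% of 16030 genes tested, so the share is near that of the genome. Batch differences were largest for 2 genes: they held 71.1% of the variance of dod-22 among lines, more than for 99.9% of genes, and 65.99% of that of mtl-2, more than for 99.7%, where the median gene had 25.5%. The other shares ran from 32.7% for dod-17 to 47.3% for dod-3, with 15.9% for lea-1 and 6.38% for hsp-12.6, the gene that did not pass (adjusted p = 0.233). Without batch 4, dod-24 no longer passed (adjusted p = 0.599), and without batch 9, lea-1 no longer passed (adjusted p = 0.0697). Each line was in 1 batch, so batch and the lines in it cannot be told apart by the lines alone.

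In batch 4 the lowered genes were high and several raised genes low. The 11 lines of that batch had 22.2 ± 3.95 CPM of dod-17 (SD), 29.7 ± 8.62 of dod-22 and 181 ± 54.5 of dod-24, while the means of the other batches ran from 7.83 to 14.8 for dod-17 and from 47.7 to 69.9 for dod-24. The lowest batch 4 line had 98.5 CPM of dod-24, above the median of every other batch. The same lines had 8.31 ± 2.85 CPM of mtl-2, where the other batch means ran from 19.3 to 33.6, and 2.07 ± 0.628 of sod-3, which was as low as the 2.14 ± 0.560 of batch 2. Their dod-3 mean was 0.423 ± 0.212 CPM, the lowest of the 7 batches. Intestine markers in those lines summed to between 1002 and 2165 CPM, within the range of the other lines.

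Batch 9 was high for a different set. Its 14 lines had 3.27 ± 2.54 CPM of dod-3, 32.4 ± 23.2 of dod-22, 33.6 ± 7.53 of mtl-2, 3.04 ± 4.91 of mtl-1 and 315 ± 141 of lea-1, the highest batch mean for each. The lowest line of the batch had 0.598 CPM of mtl-1, above the highest line of batches 3 and 4, at 0.390 and 0.488. Without QX491 and QX503 the other 12 lines had 2.59 ± 2.04 CPM of dod-3, beside 1.46 in the next highest batch, 34.3 ± 24.6 of dod-22, beside 29.7, and 1.25 ± 0.875 of mtl-1, beside 0.645. The means of mtl-2 and lea-1 then hardly differed from the next batch, at 31.6 ± 6.12 beside 30.9 and 261.4 ± 29.7 beside 260.9 CPM. Sod-3, at 3.64 ± 1.88 CPM, and dod-24, at 52.3 ± 32.9, lay within the range of the other batch means. Thus dod-22 was high in both batches, while dod-3 and mtl-2 were lowest in batch 4 and highest in batch 9.

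The CB4856 library of each batch, which has the same genotype throughout, was set beside the lines. Over the 7 batches, the CB4856 level correlated with the mean of the lines at an unadjusted p under 0.05 in 6 of the 10 genes by a two-sided exact permutation test, beside 20.8% of 16030 genes. Adjusted over all genes, 0 genes passed, and the lowest adjusted p among the 10 genes was 0.113. The value of r was 0.964 for mtl-2 (rho = 0.929, exact p = 0.00119), 0.929 for sod-3 (rho = 0.929, exact p = 0.00734), 0.913 for dod-22 (rho = 0.750, exact p = 0.00278), 0.894 for dod-24 (rho = 0.893, exact p = 0.00298), 0.851 for dod-3 (rho = 0.536, exact p = 0.0139) and 0.831 for lea-1 (rho = 0.750, exact p = 0.0252). The median r was 0.495 over all genes and 0.846 over the 10. In batch 4, CB4856 had 4.39 CPM of mtl-2, 47.5 of dod-22 and 287 of dod-24, its lowest value of mtl-2 and its highest values of dod-22 and dod-24. In batch 9 it had 22.8 CPM of mtl-2, 4.304 of dod-3 and 305 of lea-1, its highest values of each. The exact p of rho was 0.00675 for both mtl-2 and sod-3 and 0.0123 for dod-24, and at least 0.0663 for the others. Without the 2 batches farthest from the median r was 0.734 for mtl-2, 0.718 for sod-3, 0.925 for dod-22, 0.655 for dod-24, 0.941 for dod-3 and 0.940 for lea-1, and 0 of 10 had an exact p under 0.05 over 5 batches. The value of r was 0.784 for dod-6 (exact p = 0.0518), 0.626 for dod-17 (exact p = 0.131) and 0.524 for hsp-12.6 (exact p = 0.246), and for mtl-1 it was 0.841 (exact p = 0.0704) and -0.05 without batches 9 and 2.

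**Figure D5:**
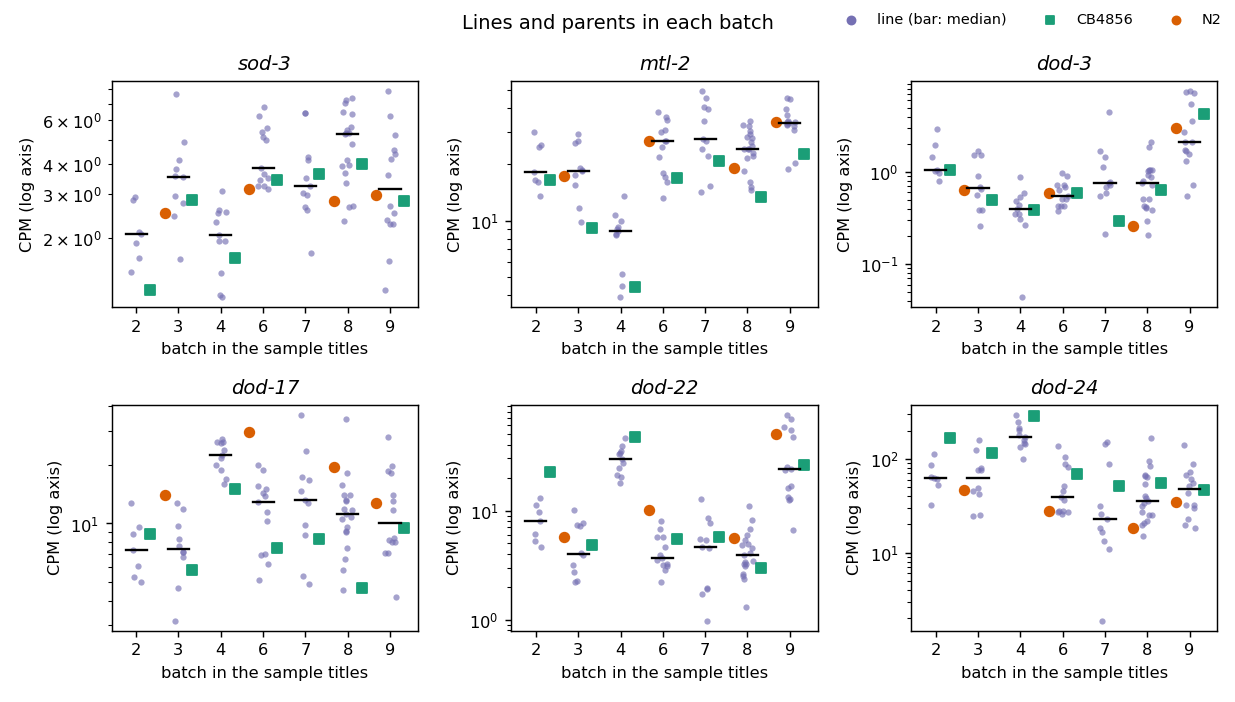
Levels (CPM, log axes) of 6 genes by batch, with lines as dots, their median as a bar, CB4856 as a square and N2 as a circle where present. In batch 4 both lines and CB4856 are low for mtl-2 and high for dod-22 and dod-24, and in batch 9 lines and both parents are high for dod-3.

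Several of the genes moved with marker transcripts of tissue or stage across lines, in 50 pairs of a gene and a list, of which 12 passed by Pearson r as measured and 12 with batch means removed. The closest was dod-17 with the intestine list, at r = 0.559 pooled (rho = 0.560, adjusted p = 0.00025) and 0.529 with batch means removed (adjusted p = 0.0005), and 0.505 without the 2 lines farthest in the markers. It also passed with sperm markers, at 0.357 (adjusted p = 0.0060) and 0.328 with batch means removed (adjusted p = 0.0140). With oocyte markers dod-17 had -0.382 (adjusted p = 0.0019) and -0.376 (adjusted p = 0.0114). The gene dod-6 was higher where intestine markers were higher, at 0.445 (rho = 0.404, adjusted p = 0.000333) and 0.347 with batch means removed (adjusted p = 0.0139), and was lower where oocyte markers were higher, at -0.491 (rho = -0.496, adjusted p = 0.00025) and -0.371 (adjusted p = 0.0073). In the other direction, hsp-12.6 was lower where intestine markers were higher, at -0.340 (rho = -0.344, adjusted p = 0.0104) and -0.424 with batch means removed (adjusted p = 0.00175). So was lea-1, at r = -0.370 (adjusted p = 0.00292) and -0.374 with batch means removed (adjusted p = 0.0139). Its rho was only -0.194 (adjusted p = 0.179), and r was -0.280 without the 2 lines farthest in the markers (adjusted p = 0.0530). For mtl-2 and dod-3, the relation with oocyte markers was -0.376 and -0.404 with batch means removed (adjusted p = 0.0073 for each), beside -0.287 and -0.148 pooled. With sperm markers mtl-2 had 0.355 with batch means removed (adjusted p = 0.00892), beside 0.231 pooled (adjusted p = 0.112). The genes sod-3, mtl-1, dod-22 and dod-24 passed by Pearson r with none of the 5 lists, with r between -0.246 and 0.199 over both ways of computing it, and dod-24 had -0.146 and -0.05 with the intestine list. By rho, dod-22 passed with the yolk list, at 0.280 pooled (adjusted p = 0.0459), but stood at 0.0985 with batch means removed (adjusted p = 0.535). The part of lines QX491 and QX503 in these correlations was not tested. The part of tissue or stage in the levels of the genes was not tested either.

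Among the 16029 other genes, the transcript most like each of the 10 over lines, by Pearson r of log2 CPM with batch means removed, was named as a description. For the lowered genes it lay on chromosome IV each time, as it did for dod-3, dod-6 and lea-1, which lie on other chromosomes. For dod-17 it was F55G11.2 of the same interval (r = 0.675). That of dod-22 was C17H12.8 (0.644), in the p38 immune list and outside the interval at IV:6818703-6820575, followed by F55G11.8 of the interval (0.639). That of dod-24 was ZK896.4 (0.664), at IV:12880607-12883290, also outside the interval. For dod-6 it was M04G7.1 at 0.867, the closest of all, followed by phat-4 (0.841) and phat-7 (0.787), which are named for toxin-related proteins of the pharyngeal gland. The gene mtl-1 was most like acdh-10 (0.649), an acyl-CoA dehydrogenase gene, followed by nnt-1 (0.640), a transhydrogenase gene that is itself among the other genes raised by DAF-16. The gene most like lea-1 was fkh-7 (0.737), a forkhead transcription factor gene, and those most like dod-3, mtl-2, sod-3 and hsp-12.6 were scl-2 (0.669), F33D11.2 (0.698), F13H8.3 (0.699) and C34D10.1 (0.573). All lines entered here, and how far the matches of mtl-1 and lea-1 rest on QX491 and QX503 was not tested.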

How the data were processed

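RNA of 96 C. elegans libraries was counted per gene. The authors deposited raw read counts in the layout of STAR's gene counting; STAR 2.73a, FastQC, DESeq2 and the WBcel235 build are named in the submitters' processing notes. The column that ignores strand was used, because the ratio of the 2 strand columns lay between 0.957 and 1.04. Reads mapping to several places (5.24% on average), to overlapping genes (0.885%), outside genes (0.741%) or nowhere (0.563%) stayed out of library sizes and tests. Symbols and positions come from the Ensembl annotation of WBcel235, which held 46817 of 46904 identifiers. No 2 libraries agreed within sampling noise (chi-square per degree of freedom of at least 7.47 in 4560 pairs).

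Tests used edgeR 4.0.16 in R 4.3.3 (filterByExpr, TMM factors, robust quasi-likelihood test, two-sided) on all genes, with Benjamini-Hochberg adjustment over all genes tested and a threshold of 0.05. DESeq2 1.42.0 was an alternative, and the fits were tested on simulated data. Correlations and variances used log2 CPM with a prior count of 2, and permutations used scipy 1.17.1 or numpy 2.4.6. The parental comparison used strain alone. The titles give the batch that parental libraries share, which pairs them: deviations from the strain means correlated between the strains at 0.3, 0.0819, 0.568 and 0.146 in batches 3, 6, 8 and 9. Intervals and floors (3 counts) cover counting error only.

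All 10 genes are named, with the gene most like each and up to 3 genes of each context list that passed between the parents, by smallest p; 1 such gene is not reported here. Genes, lists and tests were chosen with earlier results of these data known. The symbols hsp-16.11, hsp-16.49, T24B8.5 and cdr-5 matched no identifier. Promoter and protein sequences were not analysed here.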

Additional observations from a re-analysis of the deposited data

Results flagged for a closer look

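In 40 groups of 4 to 10 libraries, 5 held a library far from the others, by a rule meant to mark about 1 in 20 groups. The rule used CPM without logs, and groups of different genes share libraries, so the 5 cannot be read against that rate. Batches of more than 10 lines did not enter. Of the 5 libraries 4 are parental, and all of those are of batch 9. For dod-3, the N2 library of batch 9 had 3.01 CPM beside 0.631 in the next N2 library, and the CB4856 library of batch 9 had 4.304 CPM beside 1.06 in the next. For dod-22, the N2 library of batch 9 had 50.1 CPM beside 10.05 in the next. For mtl-1, the CB4856 library of batch 9 had 1.88 CPM beside 0.549 in the next. Lines of batch 9 had the highest batch means of the same 3 genes. Among lines, QX531 of batch 2 had 2.45 CPM of mtl-1, where the next line of that batch had 0.681.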

How the results depend on the processing

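Of the genes tested between N2 and CB4856, 3 passed; 0 passed with the first component as a covariate, 5 with the replicate block, and 1 to 4 with 1 parental library left out. Correlated pairs of genes went from 21 to 7 with batch means removed, pairs of a gene and a marker list from 12 to 6 without the 2 farthest lines, and genes whose CB4856 level correlated with the lines at an unadjusted p under 0.05 from 6 to 0 over 5 batches. The cause was not tested, apart from the fewer samples in the last. Near-zero log2 fold changes between the parents changed sign: sod-3 was -0.050 with the component, -0.022 with DESeq2 or RLE factors, -0.014 without a filter, -0.20 with the block and -0.13 to 0.13 with 1 library left out; dod-3 was 0.40 with the component and -1.17 to 0.92 with 1 left out; dod-22 was -1.21 to 0.65. Against the midpoint, dod-17 was -0.055 with the component, -0.11 with the block and -0.050 to 0.17 with 1 left out, dod-22 -0.57 to 0.25, and dod-3 -0.020 to 0.74, and -0.026 without QX491 and QX503, an alternative added after seeing the data, like Spearman's rho and the CB4856 correlation over all genes. Without a filter dod-24 stood at an adjusted p of 0.0518 between the parents, and dod-6 passed at 0.0478 among genes of at least 1 log2 CPM. For the 10 genes the block changed no other call between the parents and none against the midpoint; several counts of the context lists moved with it, by up to 2 genes. Depth limits mtl-1 and hsp-12.6 most.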
